A study of Mus musculus with 3 samples.

Results

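The 50 protein-coding mouse genes whose symbols begin with Psma to Psmg and a number were taken from the 54532 genes of each file, and 49 of them hold a role in the proteasome. They fall into 8 alpha ring genes, 7 constitutive beta ring genes, 4 inducible or thymic catalytic genes, 6 ATPases and 3 further genes of the 19S base, 8 lid genes, 6 activator or inhibitor genes and 7 assembly chaperones. Psmc3ip also has a matching symbol, but its product is a partner of meiotic recombination proteins and no proteasome subunit. Measurable RNA was found for 48 of the 50. Psma8, the alpha subunit of the testis, and Psmb11, the catalytic subunit of thymic cortical epithelium, had 0 reads in each library, for which counting error alone (3 reads) leaves room for 1.61 CPM (reads scaled to library size) with PBS, 0.191 with ZOL and 0.342 with ZOL+Ang2.

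RNA-seq was carried out on 3 libraries of dura mater cells from mice that all carried 4T1-DM cells, a model of dural metastasis built on the 4T1 mammary carcinoma line. One group received PBS, one ZOL and one ZOL+Ang2, names that the labels do not expand, and dorsal dura was taken on day 12 after inoculation. The cells are labelled CD45-CD31+PDPN+, a combination used for lymphatic endothelium. Cells of 6 mice were pooled per group, so that each group is 1 library with no replicate, and neither dose nor strain, age or sex is given in the sources used here. No test could be run, and the differences below describe 3 pools without any measure of how mice vary.

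The proteasome is the particle that breaks down proteins tagged with ubiquitin. Its 20S core is a barrel of outer alpha rings, which gate the entry, and inner beta rings, in which Psmb5, Psmb6 and Psmb7 carry the cutting sites. The 19S cap binds the ubiquitin chain, removes it with the lid enzyme Psmd14 and unfolds the substrate with the base ATPases. Leukocytes and cells exposed to interferon gamma build Psmb8, Psmb9 and Psmb10 into new cores in place of Psmb5, Psmb6 and Psmb7, and this immunoproteasome supplies peptides for MHC class I. When proteasome activity falls short, the transcription factor NRF1 (Nfe2l1) drives subunit genes together through antioxidant response elements.

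The letters TGACNNNGC, the core of that element, were searched on both strands in the 250 bases before each RefSeq gene start (build GRCm38.p6), where 42 of the 50 genes had 45 windows. They were present in 5 of the 45 member windows (11.1%) and in 10.2% of all 32851 windows, so the share in these genes was close to that of promoters at large. The 5 stretches are shown because they are the member windows that hold the match. Capitals mark the match, each is written on the strand of its gene, and bases annotated as exon were left out.
Psmb5, chr14:54618023-54618077, minus strand: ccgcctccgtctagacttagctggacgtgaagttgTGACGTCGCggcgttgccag
Psmb6, chr11:70525313-70525356, plus strand: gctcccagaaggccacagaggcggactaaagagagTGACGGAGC
Psmc6, chr14:45329574-45329640, plus strand: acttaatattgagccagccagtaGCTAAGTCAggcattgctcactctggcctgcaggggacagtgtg
Psmd9, chr5:123228124-123228189, plus strand: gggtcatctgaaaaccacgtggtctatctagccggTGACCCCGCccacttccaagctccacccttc
Psmd12, chr11:107479278-107479324, plus strand: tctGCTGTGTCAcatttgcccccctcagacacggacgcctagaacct
The matches lie 47, 9, 227, 31 and 247 bases before the RefSeq starts of Psmb5, Psmb6, Psmc6, Psmd9 and Psmd12, and in Psmc6 and Psmd12 they are on the reverse strand. Of other letters searched in the same windows, CCAAT was present in 33.3% of member and 33.8% of all windows. The interferon response element core was present in 3 of 45 member windows (6.67%, those of Psmb3, Psmd4 and Psmd9) and in 2.98% of all. TTCNNNGAA (gamma-activated site core) was present in 4.44% and 7.02%, and the GC box GGGCGG in 51.1% and 32.7%.

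The recovered reads numbered 1675471 for PBS, 16583910 for ZOL and 9203728 for ZOL+Ang2, and PBS values were therefore the least precise. Among protein-coding genes with at least 60 CPM in ZOL, 37.6% had 6 reads or fewer in PBS against 5.85% in ZOL+Ang2, so low PBS reads were common across the whole library. Markers did not follow the label evenly. Lyve1 had 0 reads in each library, and Prox1, the lymphatic fate factor, only 2 reads in PBS and 0 in the others. Pecam1, the gene of CD31, stood at 1.08 CPM with PBS, 475 with ZOL and 177 with ZOL+Ang2, and, in that order, Pdpn at 18.8, 67.5 and 171, and Ptprc, the gene of CD45, at 156, 25.1 and 76.1. In the same order, the 8 endothelial markers summed to 949, 1329 and 446 CPM, 6 lymphatic markers to 256, 107 and 47.6, and 6 fibroblast markers to 343, 454 and 10780 (Lum and Pdgfra at 0 reads in PBS). Of the endothelial markers, 3 (Pecam1 among them) were at least 2-fold higher in ZOL than in PBS and 1 (Icam2) lower, beside 49.2% and 29.4% of all genes. The others differed less, in both directions. Of the lymphatic markers, Mmrn1 (155, 11.5 and 12.0 CPM) and Reln (99.6, 8.60 and 7.87) were highest in PBS. Flt4 (0.538, 70.9 and 23.8) and Ccl21a (0, 16.2 and 3.88) were highest in ZOL. The 6 erythroid markers summed to 191, 7.20 and 25165 CPM, the 5 of simple epithelium and carcinoma to 542, 4688 and 4394, and the 4 of dividing cells to 78.0, 867 and 485. Krt8 and Krt18 made up most of the epithelial sum in ZOL (2451 and 1911 CPM). Of those 5 markers, 4 were at least 2-fold higher in ZOL than in PBS, whereas Cdh1 stood at 165, 84.9 and 81.3 CPM.

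Levels of genes are given as scaled RPKM, the CPM per kilobase of exon after TMM scaling of the libraries, so that genes and libraries can be set side by side. The 49 proteasome genes took 0.347% of all reads in PBS (exact 95% binomial interval 0.338% to 0.356%), 1.18% in ZOL (1.17% to 1.18%) and 1.05% in ZOL+Ang2 (1.04% to 1.06%). These intervals, like all below, cover counting error only. Of 47 genes with a role and with reads, 43 had their lowest level in PBS and 4 in ZOL+Ang2 (Psmc3, Psmd1, Psmf1 and Psmg1) with TMM scaling, and 31 had their highest in ZOL, 15 in ZOL+Ang2 and 1 (Psmc3) in PBS. Another scaling moves every fold between a pair of libraries by 1 common factor. Median-of-ratios scaling divides each fold of ZOL over PBS below, bounds included, by 1.83, and RPKM as deposited by 2.50. With median-of-ratios scaling 38 of the 47 genes were lowest in PBS, and 8 (Psma6, Psmb3, Psmb6, Psmc3, Psmd1, Psmd8, Psme4 and Psmf1) in place of 1 were lower in ZOL than in PBS. Folds of ZOL+Ang2 over ZOL are divided by 0.873, and 28 genes in place of 32 were then lower in ZOL+Ang2. In pooled cells, fewer cells of a type and less RNA per cell cannot be told apart.

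**Figure D1:**
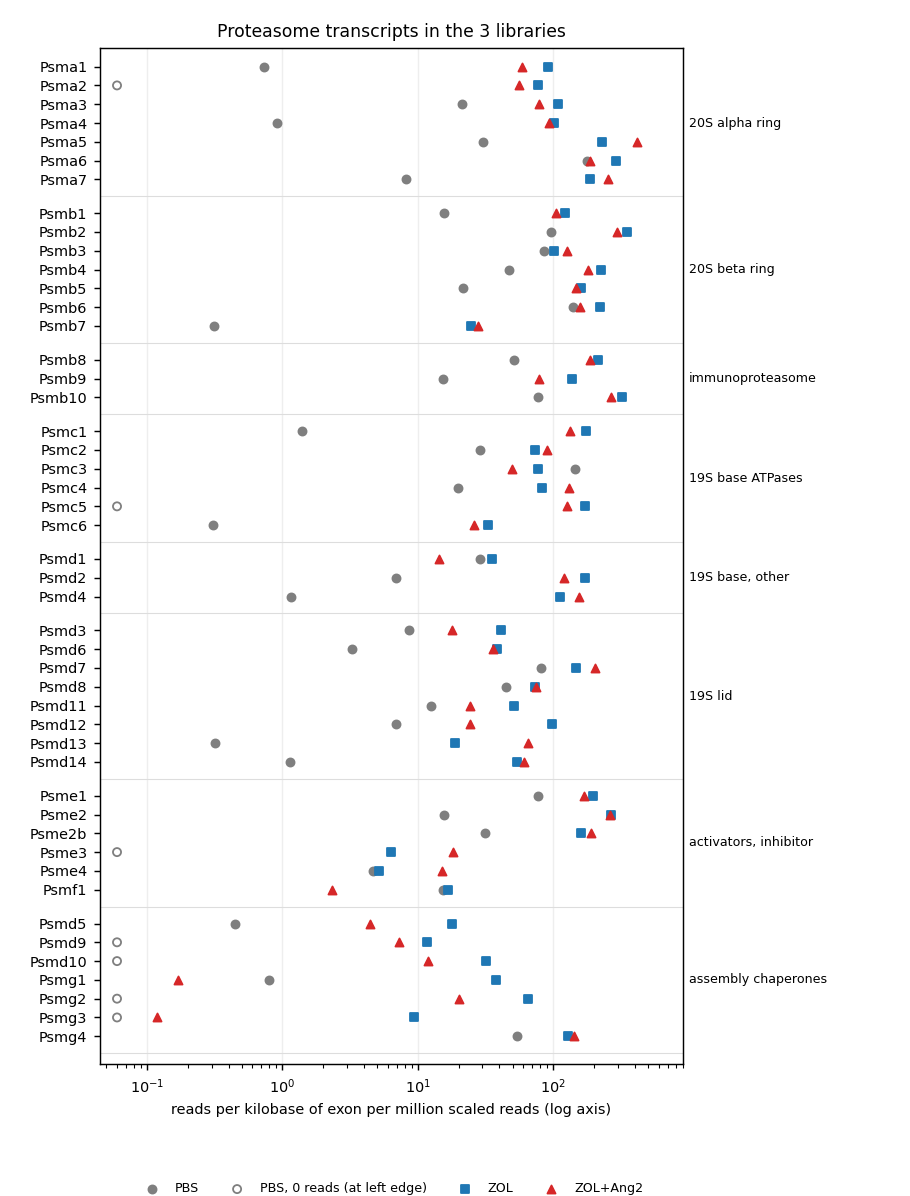
Level of each of the 47 proteasome genes with reads, as scaled RPKM on a log axis, with 1 point per library (PBS circles, ZOL squares, ZOL+Ang2 triangles) and genes grouped by role. Open circles at the left edge are genes with 0 reads in PBS; ZOL and ZOL+Ang2 points lie close together for the core and apart for several lid genes and assembly chaperones, and PBS points are scattered.

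Of the immunoproteasome genes, Psmb10 had the highest level and Psmb9 the lowest in each library. Psmb8 (chr17:34197721-34201454, mm10), which replaces the chymotrypsin-like subunit, stood at 51.1, 213 and 186 scaled RPKM in PBS, ZOL and ZOL+Ang2, from 260, 9158 and 4457 reads. Psmb10 (chr8:105935735-105938444), which replaces the trypsin-like subunit, stood at 77.3, 324 and 268. Both were lowest in PBS and close to each other in their differences, 4.17-fold (interval 3.69 to 4.73) and 4.19-fold higher (3.69 to 4.78) in ZOL than in PBS. Psmb9 (chr17:34181987-34187764), which replaces the caspase-like subunit, stood at 15.4, 138 and 78.6 scaled RPKM. It was 8.95-fold higher in ZOL than in PBS (7.38 to 10.96) and 1.76-fold lower in ZOL+Ang2 than in ZOL (1.68 to 1.84), against 1.15-fold (1.11 to 1.19) for Psmb8 and 1.21-fold (1.17 to 1.26) for Psmb10. Psmb9 shares 212 exon bases with Tap1 on the opposite strand, and with no strand information stated, reads from that overlap cannot be assigned to either.

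Because a pair of genes read in the same library needs no scaling between libraries, each immunoproteasome gene was set against the gene it replaces. Psmb8 made up 70.4% of the summed level of Psmb8 and Psmb5 in PBS (62.6% to 77.6%), 57.0% in ZOL (55.9% to 58.1%) and 55.6% in ZOL+Ang2 (54.0% to 57.2%). The share in PBS was the highest and its interval stood apart from the others, whereas those of ZOL and ZOL+Ang2 overlapped. Psmb9 made up 9.99% of its pair with Psmb6 in PBS (8.17% to 12.1%), 38.4% in ZOL (37.7% to 39.2%) and 33.3% in ZOL+Ang2 (32.1% to 34.6%), so that PBS was lowest and the 3 intervals did not overlap. Psmb10 made up 99.6% of its pair with Psmb7 in PBS (98.5% to 99.95%), where Psmb7 had only 2 reads, 93.0% in ZOL (92.6% to 93.3%) and 90.6% in ZOL+Ang2 (89.9% to 91.2%). PBS was therefore high in 2 pairs and low in 1, and the value in ZOL lay above that in ZOL+Ang2 in all 3, with overlapping intervals for Psmb8.

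**Figure D2:**
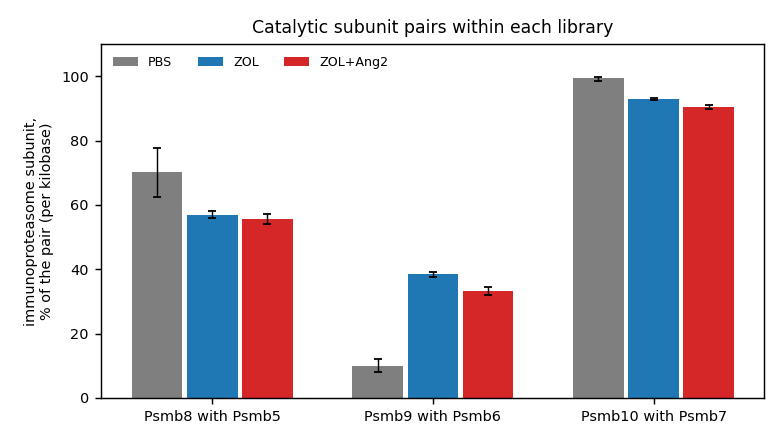
Share of the immunoproteasome gene in the summed level per kilobase of each catalytic pair, in percent, for the 3 libraries; error bars are exact 95% binomial intervals of the reads and cover counting error only. Psmb9 ranges from 9.99% in PBS to 38.4% in ZOL, while Psmb8 and Psmb10 are highest in PBS.

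The share of a pair depends on the gene lengths used. With the longest protein-coding transcript in place of the union of all exons, an alternative chosen after seeing the data, Psmb8 made up 80.0%, 69.0% and 67.8% of its pair in PBS, ZOL and ZOL+Ang2 and Psmb10 85.4% and 80.9% in ZOL and ZOL+Ang2, with the same order of the libraries. Psmb7 shares 405 exon bases with Nek6 on the opposite strand. Macrophages and neutrophils build immunoproteasomes, and the 11 markers of these cells summed to 1299 CPM with PBS, 125 with ZOL and 2315 with ZOL+Ang2, with Cd68 at 0 reads in each library, C1qb at 0 in PBS and Csf1r and C1qa at 0 in ZOL. The 9 lymphocyte markers summed to 271 CPM in PBS, most of it Cd79a (233 CPM), 0.573 CPM with ZOL and 0 with ZOL+Ang2 (7 and 9 of the 9 at 0 reads). The summed level of Psmb8, Psmb9 and Psmb10 was 144, 676 and 532 scaled RPKM in the same order, and was highest in ZOL, where the myeloid sum was lowest. The part of other cell types in these levels was not tested.

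In the constitutive beta ring, Psmb5 stood at 21.6, 161 and 148 scaled RPKM in PBS, ZOL and ZOL+Ang2, Psmb6 at 139, 221 and 157, and Psmb7 at 0.315, 24.5 and 27.9. Psmb6 was the most abundant of the ring in PBS and Psmb7 the least abundant in each library. The highest beta level in ZOL was that of Psmb2, a structural subunit, at 349 scaled RPKM against 95.7 in PBS and 298 in ZOL+Ang2. Psmb3 stood at 85.4, 102 and 127 and was 1.19-fold higher in ZOL than in PBS (1.07 to 1.33) with TMM scaling, but lower with median-of-ratios scaling (log2 fold -0.60, against -0.20 for Psmb6). Psmb7 had the highest fold of the ring (77.9-fold, 21.5 to 644, from 2 PBS reads). Between ZOL+Ang2 and ZOL, the 7 beta genes ran from 1.41-fold lower (Psmb6, 1.35 to 1.47) to 1.25-fold higher (Psmb3, 1.19 to 1.31).

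The alpha ring genes were less even in PBS. Psma6 stood at 177, 291 and 187 scaled RPKM and was the most abundant of them in PBS and ZOL, whereas Psma5 led in ZOL+Ang2 at 412, against 30.2 in PBS and 229 in ZOL. Psma2 had 0 reads in PBS and 4451 and 1783 in ZOL and ZOL+Ang2, which is at least 176-fold higher in ZOL by counting error (against 3 PBS reads). Psma1 and Psma4 had 4 PBS reads each, at 0.729 and 0.908 scaled RPKM, against 91.9 and 100.5 in ZOL. In ZOL+Ang2 against ZOL, Psma5 was 1.80-fold higher (1.73 to 1.88), and Psma1 and Psma6 were both 1.55-fold lower (1.46 to 1.65 and 1.48 to 1.64).

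As subunits of a single particle, the 14 core genes with reads were also compared among themselves. Their levels had a coefficient of variation of 124% for PBS, 55.5% for ZOL and 68.1% for ZOL+Ang2. The highest core level was 14.2 times the lowest in ZOL (Psmb2 over Psmb7) and 14.8 times in ZOL+Ang2 (Psma5 over Psmb7), and in PBS the lowest was at 0. The order of the 31 core, base and lid genes was similar in ZOL and ZOL+Ang2 (Spearman's rho 0.86 across genes), and less so in PBS and ZOL (0.45) or PBS and ZOL+Ang2 (0.43). These genes share their library and length in each pair of values, and rho is given as a description.

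Some ATPase genes of the 19S base were almost unread in PBS beside others well covered there, which was not particular to the base. In PBS, 3 of 6 ATPases had 6 reads or fewer, beside 3 of 7 alpha ring genes and 2 of 8 lid genes. Among protein-coding genes of at least 100 CPM in ZOL the share was 31.1%. Psmc5 had 0 reads in PBS, and 172 and 127 scaled RPKM in ZOL and ZOL+Ang2, at least 149-fold higher in ZOL (against 3 PBS reads). Psmc1 stood at 1.39, 174 and 134, the highest of the ATPases in ZOL, and Psmc6 at 0.308, 33.1 and 26.1 from 2 PBS reads. In contrast, Psmc3 stood at 143, 77.8 and 49.7 and was 1.85-fold lower in ZOL than in PBS (1.70 to 2.00). With TMM scaling it was the only member lower in ZOL than in PBS, and the difference was larger, past 2-fold, with median-of-ratios scaling (log2 fold -1.72) and with RPKM as deposited (-2.17). Slc39a13, which shares 215 exon bases with Psmc3 on the opposite strand, had 0, 2034 and 66 reads. Psmc4 was the ATPase with the largest excess in ZOL+Ang2 over ZOL, 1.59-fold (1.51 to 1.68).

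Of the other base genes, Psmd4, the receptor of ubiquitin chains, stood at 1.15, 112 and 156 scaled RPKM in PBS, ZOL and ZOL+Ang2. Psmd2, a scaffold subunit and the most abundant of these genes in ZOL, stood at 6.93, 171 and 120. Psmd1, the other scaffold, stood at 28.8, 35.1 and 14.3, and was 2.47-fold lower in ZOL+Ang2 than in ZOL (2.29 to 2.65). Its exons share 252 bases with Htr2b on the opposite strand (0, 139 and 0 reads).

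Lid genes went separate ways between ZOL and ZOL+Ang2. Psmd12, a structural lid subunit, stood at 6.91, 98.6 and 24.1 scaled RPKM in PBS, ZOL and ZOL+Ang2, 4.10-fold lower in ZOL+Ang2 than in ZOL (3.75 to 4.48). Psmd3 and Psmd11, both scaffold subunits of the lid, were 2.28-fold (2.11 to 2.47) and 2.09-fold lower (1.97 to 2.22). Psmd13 stood at 0.319, 18.7 and 65.3 and was 3.49-fold higher in ZOL+Ang2 than in ZOL (3.24 to 3.78), opposite in direction to these 3. Sirt3, which shares 342 exon bases with Psmd13 on the opposite strand, had 0, 299 and 246 reads. The deubiquitinase Psmd14 stood at 1.15, 53.7 and 60.8, 1.13-fold higher (1.06 to 1.21), and Psmd7, its partner in the lid and the most abundant lid gene in each library, at 80.7, 148 and 202. In ZOL against PBS the lid genes ran from 1.62-fold higher for Psmd8 (1.43 to 1.85) to 58.7-fold for Psmd13 (16.2 to 485, from 2 PBS reads).

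Activators replace the 19S cap at the end of the core. Psme1 and Psme2 form PA28 alpha-beta, which interferon gamma induces and which is paired with the immunoproteasome. Psme1 stood at 76.995, 195 and 168 scaled RPKM in PBS, ZOL and ZOL+Ang2, and Psme2 at 15.6, 265 and 265, so that Psme1 exceeded its partner 4.95 times in PBS and reached 0.737 and 0.637 times its level in ZOL and ZOL+Ang2. Psme2b, a gene close in sequence to Psme2, stood at 31.5, 159 and 189, and values of both are uncertain because reads may be split between such copies. The nuclear activator Psme3 (PA28 gamma) had 0 reads in PBS and 6.35 and 18.3 scaled RPKM in ZOL and ZOL+Ang2, and was 2.88-fold higher in the latter (2.48 to 3.34). Psme4 (PA200), an activator best known from testis and DNA repair, stood at 4.62, 5.15 and 15.1, 2.94-fold higher in ZOL+Ang2 than in ZOL (2.67 to 3.24). Psmf1 (PI31), first described as an inhibitor of the core, stood at 15.2, 16.7 and 2.32. With TMM scaling it was close in PBS and ZOL (1.10-fold, 0.943 to 1.29). It was lower in ZOL with median-of-ratios scaling and with RPKM as deposited (log2 fold -1.13 with the latter). In ZOL+Ang2 it was 7.21-fold lower than in ZOL (6.03 to 8.68).

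Assembly chaperones help build the particle and are not part of it. They were the group with the lowest median in ZOL+Ang2 against ZOL. Psmg1 and Psmg2 pair to assemble the alpha ring. Psmg1 had 2, 792 and 2 reads in PBS, ZOL and ZOL+Ang2. Psmg2 had 0, 1074 and 188, counts that may be too low because its exon length is uncertain. Psmg1 was thus 221-fold lower in ZOL+Ang2 than in ZOL (61.0 to 1830.1, from 2 reads), and Psmg2 3.19-fold lower (2.73 to 3.75). Psmg3 and Psmg4 form the second such pair and differed from each other, with 0, 423 and 3 reads for Psmg3 (78.8-fold lower, 26.8 to 384) and 54.3, 128 and 143 scaled RPKM for Psmg4 (1.11-fold higher, 1.01 to 1.22). Psmd5, Psmd9 and Psmd10, which chaperone the base ATPases, stood at 17.7, 11.7 and 31.7 scaled RPKM in ZOL. Psmd5 was 4.03-fold lower (3.55 to 4.58), Psmd10 2.69-fold (2.25 to 3.22) and Psmd9 1.62-fold lower (1.46 to 1.81) in ZOL+Ang2. In PBS, 6 of these 7 genes had 6 reads or fewer, 4 of them 0. Such low PBS reads were common: of protein-coding genes between 20 and 60 CPM in ZOL, 57.2% had 6 PBS reads or fewer and 36.4% had 0. Of those with at least 60 CPM in ZOL, the shares were 37.6% and 16.6%. Against a floor of 3 PBS reads, ZOL was at least 52.5-fold higher for Psmd9, 42.4-fold for Psmg2, 28.8-fold for Psmd10 and 16.7-fold for Psmg3. Low reads in ZOL+Ang2 as for Psmg1 and Psmg3 were not rare at their level: of 3681 protein-coding genes between 20 and 60 CPM in ZOL, 21.5% had 6 reads or fewer there.

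Across the table, 10942 genes had a mean of at least 10 CPM, among them 46 of the 50 members. Psma8, Psmb11, Psmc3ip and Psmg3 lay below. Of the 46, 29 reached 10 CPM in each library, 16 in ZOL and ZOL+Ang2 but not in PBS, and Psmg1 in ZOL alone. Those 16 had to be higher in ZOL and ZOL+Ang2 than in PBS, and Psmg1 higher in ZOL than in both others. All of them are among the members counted as higher in ZOL than in PBS below, and Psmg1 is among those lower in ZOL+Ang2 than in ZOL. These counts and the group medians therefore partly reflect the filter. Psmc3ip had 2, 308 and 0 reads. A log2 fold below carries a prior of 5 CPM.

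In ZOL against PBS, the comparison that asks what differed after ZOL, 37 of the 46 members were at least 2-fold higher and 0 lower, where 49.2% of all genes tested were higher and 29.4% lower. The median log2 fold was 2.70 for the members against 0.94 for all genes. Each of the 8 groups had a median above that of all genes, from 1.73 for activators and inhibitor (4 of 6 higher) and 2.03 for the immunoproteasome (3 of 3) to 4.26 for the alpha ring (6 of 7) and 4.40 for the non-ATPase base genes (2 of 3). Beta ring, ATPases, lid and chaperones had medians of 2.196 (5 of 7 higher), 3.13 (5 of 6), 2.56 (6 of 8) and 3.62 (6 of 6). With genes of 0 reads placed at their bound and no prior, the alpha ring median was 4.51 and that of the chaperones 5.36.

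The size of this difference depended on scaling and on which genes it was set beside. Median-of-ratios scaling moved the median of all genes to -0.17 and left 33 members higher and 1 lower, and among all genes past 2-fold the share higher went from 62.6% to 47.3%. Among genes of at least 50 CPM on average, 32 of 41 members were higher against 57.3% of 3558 genes, and the members' median stood 0.85 above that of all genes in place of 1.76. The median of activators and inhibitor minus that of all genes was then -0.13, leaving 7 of 8 groups above it.

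In ZOL+Ang2 against ZOL, which asks what differed when Ang2 was added, 3 members were at least 2-fold higher and 9 lower, where 16.2% of all genes were higher and 24.9% lower. These are 6.52% and 19.6% of the 46 members, both below the share among all genes. The members higher were Psmd13, Psme3 and Psme4, and those lower Psmd1, Psmd3, Psmd11, Psmd12, Psmf1, Psmd5, Psmd10, Psmg1 and Psmg2. None of the 14 core genes, 3 immunoproteasome genes and 6 ATPases tested was past 2-fold on the log2 scale with the prior. Group medians lay between -0.51 and 0.12 in 7 groups and at -1.34 in the chaperones, of which 4 of 6 tested were lower, against a median of -0.02 for all genes. With zero-read genes at their bound and no prior the chaperone median was -1.55.

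**Figure D3:**
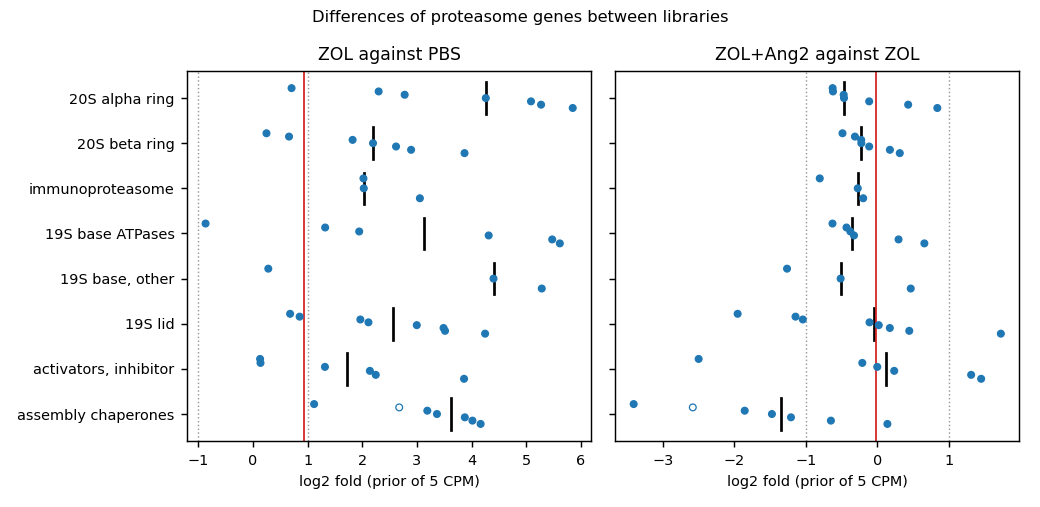
Log2 fold of each proteasome gene with reads in ZOL against PBS (left) and in ZOL+Ang2 against ZOL (right), by role; filled points passed the filter of 10 CPM on average, the open point (Psmg3) did not. Black bars are group medians of the filled points, the red line is the median of all 10942 genes (0.94 and -0.02), and dotted lines mark 2-fold; all group medians lie right of the red line on the left, and the chaperone median stands apart on the right.

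In ZOL+Ang2 against PBS, which shares a library with each of the other comparisons, 36 members were at least 2-fold higher and 2 lower (Psmc3 and Psmf1), where 44.2% of all genes were higher and 33.1% lower. The median log2 fold was 2.21 for members and 0.48 for all genes, and the share of higher genes among all past 2-fold was 57.1%, or 46.0% with median-of-ratios scaling. With that scaling 29 members were higher and 3 lower.

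Further genes of the pathway were taken from lists of known members. Of 18 tested genes of proteasome partners and ubiquitin shuttles, 12 were at least 2-fold higher in ZOL than in PBS and 1 lower (Akirin2, which brings proteasomes into the nucleus), beside 49.2% and 29.4% of all genes. In ZOL+Ang2 against ZOL 1 of these was higher and 3 lower, beside 16.2% and 24.9% of all genes, so that neither share exceeded the background. Adrm1, a ubiquitin receptor of the cap, stood at 2.15 CPM with PBS, 130 with ZOL and 39.6 with ZOL+Ang2, and Uchl5, the deubiquitinase that it binds, at 71.0, 104 and 29.99. Both were lower in ZOL+Ang2 than in ZOL, 3.27-fold and 3.46-fold. Ube3c, a ubiquitin ligase on the particle, was 8.92-fold lower, and Zfand5, a proteasome-binding protein, 2.11-fold higher. Pomp, the maturation factor of the core, stood at 91.0, 330 and 266 CPM, a pattern within 2-fold between ZOL and ZOL+Ang2 like that of the core genes.

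Of 9 genes around NRF1, 6 were tested, 5 higher and 0 lower in ZOL than in PBS, beside 49.2% and 29.4% of all genes. Between ZOL+Ang2 and ZOL, 1 was higher in ZOL+Ang2 and 2 lower, beside 16.2% and 24.9%. Nfe2l1 itself had 0 reads in PBS and 410 and 109 CPM in ZOL and ZOL+Ang2, 3.75-fold lower in the latter. Ngly1, which removes sugars from NRF1 for its activation, stood at 18.8, 17.9 and 0 CPM, and Mafg, a small partner factor, at 2.15, 56.6 and 128. The 5 genes with a TGACNNNGC match were not alike in ZOL+Ang2 against ZOL, with log2 folds of -0.11 for Psmb5, -0.49 for Psmb6, -0.33 for Psmc6, -0.65 for Psmd9 and -1.95 for Psmd12.

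Among 14 genes of class I peptide loading and its regulators, 11 were at least 2-fold higher in ZOL than in PBS and 0 lower, beside 49.2% and 29.4% of all genes. In ZOL+Ang2 against ZOL 1 was higher and 4 lower, near or below the 16.2% and 24.9% of all genes. Tap1, the peptide transporter whose gene lies beside Psmb9, stood at 2.15, 378 and 199 CPM, and was 1.90-fold lower in ZOL+Ang2 than in ZOL. The interferon-linked factors Irf1 and Irf8 were 4.39-fold and 3.53-fold lower in ZOL+Ang2 than in ZOL, and Nlrc5, the class I transactivator, 4.51-fold higher.

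By the distance between both log2 folds (ZOL against PBS and ZOL+Ang2 against ZOL), the nearest of 7569 genes of at least 20 CPM to Psmb8 were Sgce, H2-Aa, Rplp0, Dcaf8 and Rps18, at 0.016 to 0.065 log2 units. Those nearest to the mean of the alpha ring (3.75 and -0.15) were Kcmf1, Cdca3, Ilkap, Rrp1b and Wdyhv1. With 3 libraries, likeness of this kind is easily met by unrelated genes.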

How the data were processed

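RNA of 3 pools of selected mouse dura cells (PBS, ZOL and ZOL+Ang2, 1 library of 6 mice each) was amplified at full length and sequenced, per the labels' protocols. The submitters' processing notes name fastp, HISAT2 2.2.1 and featureCounts 2.0.6 with mm10, and give no roles. The deposited values were read as RPKM made by the authors: no label names the unit, the values fall on read steps per exon length, and the total behind them is not given.

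Reads were recovered as RPKM times the union exon length of GENCODE M21 over 1 step per library, and 96.9%, 96.4% and 96.2% of values above 0 came out whole (tolerance 0.01), 47 of the 50 members among them. For Psmb8, Psmb9 and Psmg2 the shortest length giving whole reads was used, and for Psmg2 its double also fits. The length used for Psmg2 (1059 bases) is shorter than its longest protein-coding transcript (1300), so its reads, CPM and bound against PBS may be too low. Low genes sat on even reads in 61.0%, 53.2% and 51.0% of cases, and if read mates were counted as separate reads, the intervals are too narrow. Reads carry no molecular identifiers.

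Reads were scaled with TMM factors (1.11, 0.946 and 0.953; trims of 30% and 5%). Genes of at least 10 CPM on average were compared, with a prior of 5 CPM on log2 folds. Folds of single genes carry no prior and have exact 95% binomial intervals conditional on the reads of both libraries. Against 0 reads, a fold is a bound from 3 reads in that library. There was no test. Shares have exact (Clopper-Pearson) intervals. Steps were tested on simulated data. Python 3.11.15, pandas 2.3.3, scipy 1.17.1 and bedtools 2.31.1 were used, with sequences from RefSeq (GRCm38.p6). Members, lists and the rule for named genes (catalytic, activator and 0-read genes and the extremes of each group) were chosen with earlier results of these data known. Genes given as examples beyond that rule were chosen after their values were seen. Coordinates are mm10, from GENCODE M21.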

Additional observations from a re-analysis of the deposited data

How the results depend on the processing

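No paired analysis was possible because each group was 1 library. Counts of members past 2-fold kept within 1.5 times their value under most settings. The lower count in ZOL against PBS (0) became 1 with median-of-ratios factors, with total reads, with totals free of mitochondrial, ribosomal RNA and satellite-type models and with thinned reads, and 5 with RPKM as deposited. In ZOL+Ang2 against PBS the lower count (2) became 4 with RPKM as deposited and 1 at 4-fold. At 4-fold, 0 members were higher and 2 lower in ZOL+Ang2 than in ZOL, beside 6.05% and 13.5% of all genes. Groups with a median above that of all genes in ZOL+Ang2 against ZOL went from 1 to 2 with median-of-ratios factors, RPKM as deposited, totals free of those models, a filter of 50 CPM and thinned reads. With RPKM as deposited, log2 folds of ZOL against PBS turned to -1.05 for Psmb3, -1.02 for Psmd1, -1.04 for Psme4, -1.13 for Psmf1 and -0.073 for Psmg4, and those of ZOL+Ang2 against PBS to -1.04 for Psma6 and -0.019 for Psme1; that setting uses the authors' library totals.

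By reads without length correction, Psmb8 made up 87.8%, 80.1% and 79.2% of its pair in PBS, ZOL and ZOL+Ang2, Psmb9 17.8%, 55.0% and 49.4%, and Psmb10 86.8% and 82.7% in ZOL and ZOL+Ang2, with mean shares of 68.3%, 74.0% and 70.4%. With the longest coding transcript (chosen after seeing the data), Psmb8 made up 80.0%, 69.0% and 67.8%, Psmb9 41.9% and 36.6% and Psmb10 85.4% and 80.9% in ZOL and ZOL+Ang2, and mean shares were 63.5%, 65.4% and 61.8%. The main mean shares were 59.98%, 62.8% and 59.8%, and the summed level of the partners over all 6 genes gave 47.2% in PBS and 61.5% in ZOL+Ang2. Without the models named above, proteasome genes took 0.538%, 1.30% and 1.20% of reads. PBS had the fewest reads, and 18 of 48 members had under 10 reads there. The part of depth in these low counts was not tested.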
